A study of Mus musculus with 12 samples.

Results

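Fibroblast growth factors (FGFs) signal through receptor tyrosine kinases to the Ras and ERK kinase cascade. The genes described here are 10 members of that pathway on Affymetrix arrays of mouse embryonic stem (ES) cells: the ligand genes Fgf4, Fgf5, Fgf15 and Fgf17, the receptor genes Fgfr1, Fgfr2 and Fgfr3, and the feedback inhibitor genes Spry4, Dusp4 and Dusp6. A member's probe sets were those annotated to its symbol alone, 23 in all, and of several the set with the highest mean over the arrays was used. The 10 members are among 18193 genes with such a probe set, and all 10 were among the 12629 genes bright enough to be tested.

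The cells were ES cells labelled 129P2/OlaHsd (E14, Ainv15) with an inducible Neurog1 transgene, coding for a transcription factor of the proneural helix-loop-helix class. The 4 groups were maintenance cultures left uninduced (0 h, no doxycycline) and cells given 1 ug/ml doxycycline for 24, 48 and 72 h, with 3 arrays each that the labels call biological replicates. All groups were grown in serum with leukaemia inhibitory factor, puromycin and G418, and the labels do not say how many clones were used. Uninduced cells at later times were not analysed here, so effects of the transgene, of doxycycline and of longer culture cannot be told apart. Nothing in the labels says whether the replicates came from separate cultures, so the p-values measure the spread between these samples, which may be technical.

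FGF4 made by ES cells activates ERK within the same cells and is known for readying them to leave the naive state, while FGF5 is the classical marker transcript of the postimplantation epiblast. FGF receptors need heparan sulphate on the cell surface to bind most of their ligands. Sprouty proteins and the dual-specificity phosphatases DUSP4 and DUSP6 are transcribed in response to ERK and dampen it, Sprouty upstream of Ras and the phosphatases on ERK itself. Their transcripts are commonly read as a record of pathway activity.

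RefSeq promoter windows (assembly GRCm38.p6) were at hand for 5 of the 10 members. They are shown for 4 members with differing time courses: Fgf4, lost after induction, Fgf5 and Dusp6, with their highest mean at 24 h, and Fgfr3, highest at 72 h. Proneural factors such as NEUROG1 bind E-boxes, written CANNTG, and each E-box match is in capitals. The 250 bases upstream of the annotated start are printed 5′ to 3′ on the strand of the gene, which is the plus strand for all 4.
Fgf4, chr7:144861136-144861385: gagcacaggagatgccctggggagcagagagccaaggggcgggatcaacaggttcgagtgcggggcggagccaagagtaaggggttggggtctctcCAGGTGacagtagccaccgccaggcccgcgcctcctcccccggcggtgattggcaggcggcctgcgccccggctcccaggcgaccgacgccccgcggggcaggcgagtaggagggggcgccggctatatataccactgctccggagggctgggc
Fgf5, chr5:98253934-98254183: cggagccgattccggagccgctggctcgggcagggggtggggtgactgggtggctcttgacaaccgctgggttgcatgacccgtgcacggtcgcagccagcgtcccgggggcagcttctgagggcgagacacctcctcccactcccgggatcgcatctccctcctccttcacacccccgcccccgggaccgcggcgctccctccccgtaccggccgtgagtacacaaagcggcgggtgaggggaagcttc
Fgfr3, chr5:33721474-33721723: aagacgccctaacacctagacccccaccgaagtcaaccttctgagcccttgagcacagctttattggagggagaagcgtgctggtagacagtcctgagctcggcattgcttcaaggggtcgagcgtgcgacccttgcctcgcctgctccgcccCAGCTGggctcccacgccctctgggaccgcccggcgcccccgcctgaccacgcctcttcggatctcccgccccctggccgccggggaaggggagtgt
Dusp6, chr10:99262981-99263230: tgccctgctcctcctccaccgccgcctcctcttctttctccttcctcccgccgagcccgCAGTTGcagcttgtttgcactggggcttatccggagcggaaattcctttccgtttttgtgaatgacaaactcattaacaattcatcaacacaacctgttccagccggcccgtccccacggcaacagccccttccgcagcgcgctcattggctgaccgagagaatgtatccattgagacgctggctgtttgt

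The Fgf4 window held 1 E-box, 154 bases before the start, which reads CACCTG on the opposite strand. The Fgfr3 window held 1 of the form CAGCTG, 97 bases before the start, and the Dusp6 window held 1 at 191 bases, while the Fgf5 window held none. The Fgfr2 window, not printed, held 1 at 235 bases. The window shown for Fgfr3 belongs to the first of its 2 annotated starts, and that of the other start held no E-box. The CANNTG motif, whose middle letters are free, was searched once for both strands, since its fixed letters read the same on each. Of all 32851 RefSeq windows of this length 66.2% held at least 1 CANNTG, so a match is common. CACCTG, on either strand, stood in 17.2% and CAGCTG in 13.0%. The matches describe the letters of these windows and are not measured binding sites.

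Neurog1 checked the labels. Its signal was 465 to 1152 on induced arrays, against 4.53 to 18.7 on uninduced arrays, with log2 differences of 5.06 ± 0.27 at 24 h, 5.29 ± 0.27 at 48 h and 4.58 ± 0.27 at 72 h (SE, n = 3 per group). Differences throughout are on the log2(signal + 16) scale, which understates changes of dim genes, and adjusted p-values are from limma with Benjamini-Hochberg adjustment over all genes tested. The array of induced 24 h replicate 1 stood apart, with r = 0.826 and 0.804 across genes to its group, whereas the remaining pairs from the same group were at 0.961 or above. Values without it stand beside the members' differences from uninduced cells at 24 h. The 12 naive ES cell markers summed to 44610 to 49500 in uninduced cells, 18870 to 23750 at 24 h, 3384 to 6532 at 48 h and 3242 to 3990 at 72 h, and all 12 were called lower at 48 and at 72 h. The 10 neuron markers summed to 3950 to 4398 in uninduced cells, 1766 to 4320 at 24 h, 10220 to 15020 at 48 h and 25890 to 28720 at 72 h, and 9 of 10 were called higher at the last 2 times. Mesendoderm markers stayed at or under a sum of 208 and fibroblast and feeder markers at or under 335 in every array. Endoderm markers summed to 319.6 to 983 at 72 h, against 105.5 to 264 in uninduced cells, with 4 of 6 tested higher. Of 7 formative and primed markers 5 were higher at 24 h, 3 were higher and 1 lower at 48 h, and 4 were higher and 2 lower at 72 h. Their summed signal was 1999 to 4172 in uninduced cells, 3602 to 10960 at 24 h, 2537 to 4685 at 48 h and 1612 to 3615 at 72 h. Of 8 neural progenitor markers 5 were higher at 24 h, 6 higher and 1 lower at 48 h, and 5 higher and 1 lower at 72 h. These 8 summed to 4395 to 5103 in uninduced cells and to 4190 to 5079 at 24 h. At 48 h the sum was 5947 to 7322, and at 72 h it was 4961 to 6069. Trophoblast markers summed to 435 to 712 in uninduced cells, 773 to 1217 at 24 h, 144 to 245 at 48 h and 136 to 184 at 72 h, with 2 of 4 tested lower at the last 2 times. The part of these shifts in the results below was not tested, and in bulk RNA fewer cells of a type and less RNA per cell cannot be told apart.

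After 24 h, Dusp4, Fgfr2 and Fgf5 were higher than in uninduced cells and Fgf4 and Fgf17 were lower. After 48 h, Dusp4 and Fgf15 were higher, while Fgf4, Fgf17 and Spry4 were lower. After 72 h, Dusp4, Fgfr2 and Fgfr3 were higher, and Fgf4, Fgf17 and Spry4 were lower. At 24 h 5 of 10 members passed the test, against 10.1% of all genes tested. At 48 h 5 passed, against 34.1%, and at 72 h 6 passed, against 41.3%. The counts here and between induced times include Fgf5 and Fgf17. Each of them entered the test only through the group where it was high, as given below. Over the members the median difference was 0.34, 0.41 and 0.39 at these times, beside 0.10, 0.10 and 0.08 over all genes tested. Members moved both ways at each time, with 3 higher and 2 lower, 2 higher and 3 lower, and 3 higher and 3 lower.

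**Figure D1:**
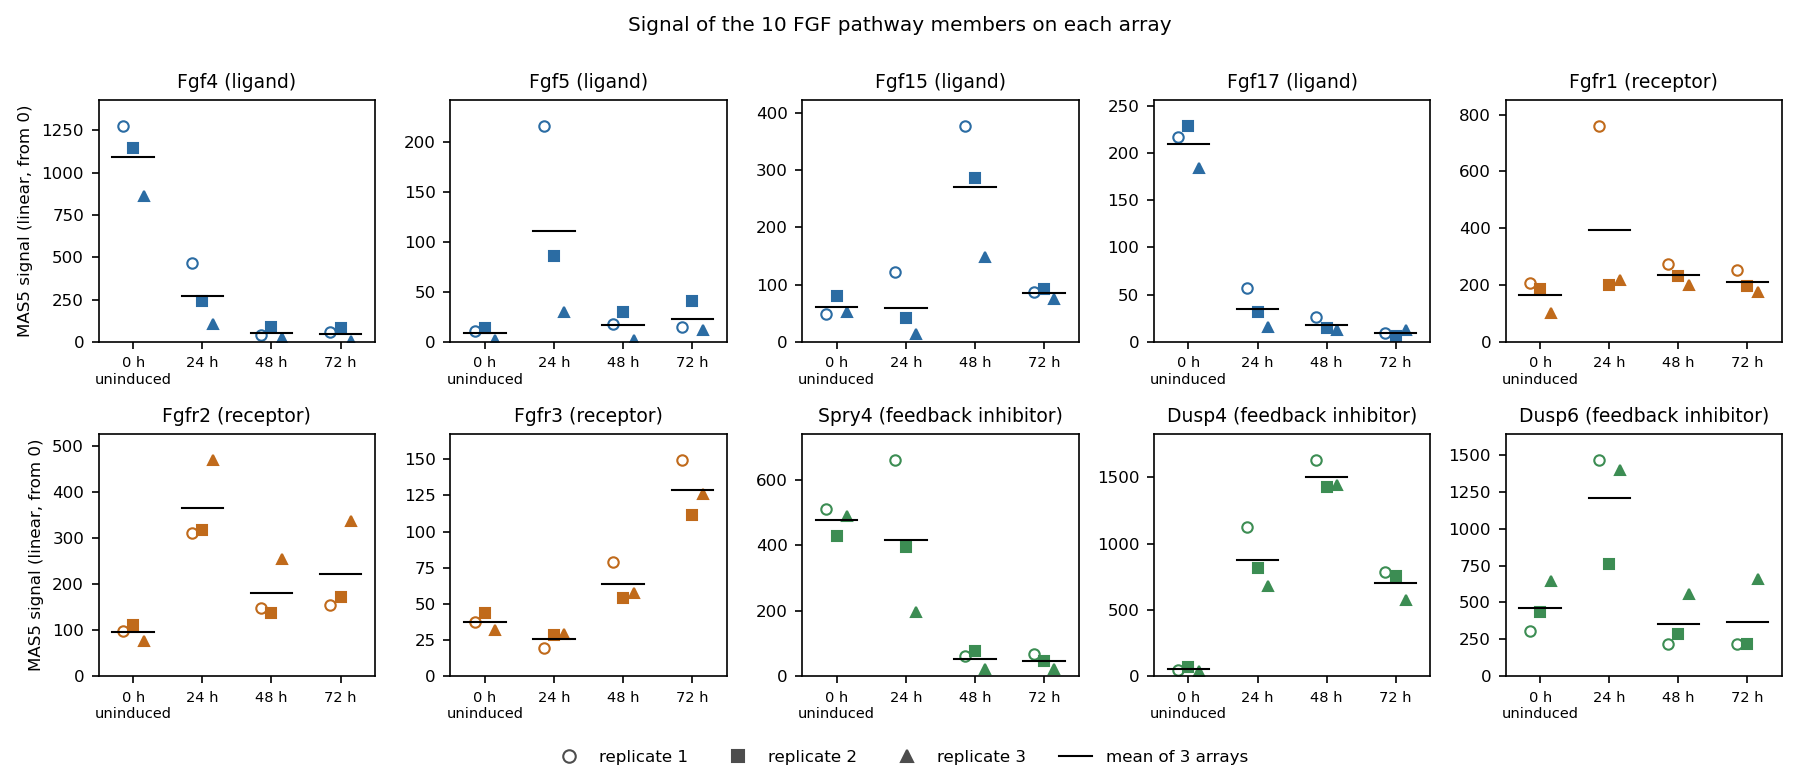
MAS5 signal (linear axis from 0) of each of the 10 members on each array, by hours of induction, with uninduced cells at 0 h, the mean as a line and replicates 1 to 3 as separate marks. Fgf4, Fgf17 and Spry4 are low on all arrays at 48 and 72 h, Dusp4 is high on every induced array, and Fgf5 and Fgfr1 have their highest point on induced 24 h replicate 1.

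Fgf4, the ES cell's own FGF ligand, was the member with the largest loss at 48 and 72 h. Fgf4 had signals of 1276, 1146 and 859.7 in uninduced cells. Its signals were 465, 239 and 104 at 24 h, 41.3, 89.0 and 20.0 at 48 h and 55.3, 82.4 and 5.26 at 72 h. The 3 uninduced arrays lay above every induced array, and the 24 h arrays above every array at 48 and 72 h. The difference from uninduced cells was -2.16 ± 0.59 at 24 h (4.47-fold lower, adjusted p = 0.0364), -4.19 ± 0.59 at 48 h (18.2-fold lower, adjusted p = 0.000164) and -4.37 ± 0.59 at 72 h (20.7-fold lower, adjusted p = 8.62e-05). The change between 48 h and 24 h passed too (-2.03 ± 0.59, adjusted p = 0.0339), while 72 h against 48 h did not (-0.18, 95% interval -1.46 to 1.10).

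The later losses of Fgf4 were called under every alternative, and the 24 h loss was less firm. It was -2.65 without induced 24 h replicate 1 (adjusted p = 0.00477). Without single other arrays the 24 h call was lost, with adjusted p = 0.0658 and 0.0882 without induced 24 h replicates 2 and 3, 0.0549 without induced 48 h replicate 1, 0.0508 without induced 72 h replicate 1, and 0.126, 0.0956 and 0.0738 without uninduced replicates 1, 2 and 3. It was lost as well with a pseudocount of 1 (0.125) and with the groups fitted alone (0.0626), and ranged from 0.00192 to 0.126 over the alternatives. The 48 h against 24 h call was lost without induced 24 h replicate 1 or 2 (both 0.0654) and without induced 48 h replicate 1 (0.103) or 3 (0.129). The probe set used is of the kind that can share probes with other sequences. The other 3 Fgf4 probe sets also had negative differences at every time, of -0.85, -2.29 and -4.67 at 48 h. The set at -0.85 was below the array median on every array.

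Fgf17, a ligand of the Fgf8 subfamily, was low from 24 h on. Fgf17 had signals of 216, 229 and 184 in uninduced cells. Its signals were 57.2, 31.3 and 15.9 at 24 h, 26.8, 14.3 and 12.4 at 48 h and 9.78, 5.67 and 12.1 at 72 h. All induced arrays lay below all uninduced arrays, and from 48 h on every array was below its own median signal. Fgf17 was above its array's median on all 3 uninduced arrays and on 2 arrays at 24 h. Without the uninduced group, where it was high, it would not have entered the test. The difference was -2.23 ± 0.29 at 24 h (adjusted p = 0.000492), -2.76 ± 0.29 at 48 h (1.89e-05) and -3.17 ± 0.29 at 72 h (3.82e-06, 8.97-fold lower). These 3 calls were kept under every alternative, and the 24 h value without induced 24 h replicate 1 was -2.53 (adjusted p = 4.07e-05). The 48 h arrays did not differ from the 24 h arrays past the threshold (-0.53 ± 0.29, adjusted p = 0.235). The other Fgf17 probe set gave -1.48, -1.71 and -1.66 at the 3 times.

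Fgf5, the epiblast marker ligand, was called higher at 24 h. Fgf5 had signals of 11.0, 13.9 and 2.14 in uninduced cells. Its signals were 216, 85.8 and 30.2 at 24 h, 18.1, 29.8 and 1.32 at 48 h and 14.5, 40.8 and 12.3 at 72 h. The 24 h arrays lay above all uninduced arrays, with induced 24 h replicate 1 highest, while the 48 h and 72 h arrays overlapped the uninduced ones. Fgf5 was above its array's median on all 3 arrays at 24 h, on 1 array each at 48 and 72 h and on no uninduced array. Without the 24 h group, where it was high, it would not have entered the test. The difference was 2.07 ± 0.52 at 24 h (4.21-fold, adjusted p = 0.0251), 0.29 ± 0.52 at 48 h (95% interval -0.84 to 1.43) and 0.58 ± 0.52 at 72 h (-0.56 to 1.71). Fgf5 was lower at 48 h than at 24 h (-1.78 ± 0.52, adjusted p = 0.0358) and lower at 72 h than at 24 h (-1.49 ± 0.52, adjusted p = 0.0484).

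The Fgf5 difference at 24 h was 1.49 without induced 24 h replicate 1 (adjusted p = 0.0342). Its call ended without induced 24 h replicate 2 (adjusted p = 0.0535), uninduced replicate 1 (0.0727) or uninduced replicate 3 (0.0974), with a pseudocount of 1 (0.0564) and with the groups fitted alone (0.0916), in a range of 0.00499 to 0.0974. The fall at 48 h against 24 h did not pass without induced 24 h replicate 1 (-1.19, adjusted p = 0.082) or 2 (0.0646), induced 48 h replicate 1 (0.0829) or 3 (0.139), or uninduced replicate 1 (0.0509). The fall at 72 h against 24 h was lost under 13 of 23 alternatives, and was -0.91 (adjusted p = 0.144) without induced 24 h replicate 1. Other arrays whose loss ended it were induced 24 h replicate 2 (0.0807), induced 48 h replicates 1 (0.064) and 2 (0.0535), induced 72 h replicates 1 (0.139) and 3 (0.138), and uninduced replicates 1, 2 and 3 (0.0646, 0.0624 and 0.0583). The second Fgf5 probe set gave 1.18 at 24 h, 0.23 at 48 h and -0.11 at 72 h.

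Fgf15, a ligand of the endocrine FGF subfamily that is also made by embryonic neural progenitors in the mouse, was highest at 48 h. Fgf15 had signals of 49.2, 79.5 and 51.4 in uninduced cells. Its signals were 122, 41.5 and 13.0 at 24 h, 377, 286 and 148 at 48 h and 86.9, 91.8 and 74.9 at 72 h. All 48 h arrays lay above all others, and the 24 h arrays spread on both sides of the uninduced ones, with induced 24 h replicate 1 high. The difference from uninduced cells was -0.29 ± 0.47 at 24 h (95% interval -1.30 to 0.72), 1.85 ± 0.47 at 48 h (3.60-fold, adjusted p = 0.00852) and 0.42 ± 0.47 at 72 h (-0.59 to 1.43). The 24 h value was -0.87 without induced 24 h replicate 1 (adjusted p = 0.0952), and the 48 h call was kept under every alternative. At 48 h Fgf15 was also higher than at 24 h (2.14 ± 0.47, adjusted p = 0.00785), a call lost with the groups fitted alone (0.069). The later decline, -1.42 ± 0.47 for 72 h against 48 h, did not pass (adjusted p = 0.273) but did without induced 24 h replicate 1 (0.0264), an array of neither group that bears on the common residual variance.

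Fgf15 and Fgf4 are neighbouring protein-coding genes on chromosome 7 in GRCm38.p6, with Fgf3 on the other side of Fgf4. Their time courses were unlike: at 48 h Fgf15 was 3.60-fold higher and Fgf4 18.2-fold lower than in uninduced cells. Fgf3, a ligand gene that is no member, was higher at 48 h as well (1.72 ± 0.38, adjusted p = 0.00403), although its second probe set gave 0.64 (0.205).

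Among the receptor genes, Fgfr2 was the one called at 24 h. Fgfr2 had signals of 98.5, 110.4 and 75.4 in uninduced cells. Its signals were 311, 317 and 468 at 24 h, 147, 137 and 253 at 48 h and 155, 171 and 337 at 72 h. Every induced array lay above every uninduced array, and the 24 h group had the highest mean, with replicate 3 high in each induced group. The difference was 1.77 ± 0.32 at 24 h (3.41-fold, adjusted p = 0.00413), 0.78 ± 0.32 at 48 h (adjusted p = 0.0797) and 1.03 ± 0.32 at 72 h (2.04-fold, adjusted p = 0.0216). The 24 h rise was called under every alternative and was 1.87 without induced 24 h replicate 1 (adjusted p = 0.00129). The neighbouring levels at 48 h and 72 h did not differ past the threshold (0.25 for 72 h against 48 h), nor did 48 h against 24 h (-0.99, adjusted p = 0.0542).

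The Fgfr2 rise at 72 h was no longer called without induced 72 h replicate 3 (0.70, adjusted p = 0.0983), uninduced replicate 1 (0.0503) or uninduced replicate 3 (0.082). It was lost too with quantile normalization (0.125), median centring (0.109), the mean of the probe sets (0.093) and the second-brightest probe set (0.119), over a range of 0.0075 to 0.125. The 48 h difference passed without induced 24 h replicate 1 (adjusted p = 0.0352), without induced 72 h replicate 3 (0.0483), with the groups fitted alone (0.0194) and with array weights (0.0404). The 48 h against 24 h difference passed without induced 24 h replicate 1 (0.0261), induced 48 h replicate 3 (0.0354) or induced 72 h replicate 3 (0.0321), and the 72 h against 24 h difference of -0.74 became -1.07 (0.0272) without the last of these. Of the other 2 Fgfr2 probe sets, 1 gave 1.73, 1.25 and 1.00 at the 3 times and the other 0.35, 0.01 and -0.15. The set with the latter values was below the array median on every array. Fgfr2 encodes alternatively spliced receptor forms with different ligand preferences, and the sources used here do not tell which form a probe set reads.

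Fgfr3 came late. Fgfr3 had signals of 37.6, 43.5 and 32.1 in uninduced cells. Its signals were 19.2, 28.6 and 28.8 at 24 h, 78.9, 54.0 and 57.5 at 48 h and 149, 111 and 126 at 72 h. The groups did not overlap: the 24 h arrays were lowest, then the uninduced, the 48 h and the 72 h arrays. The difference was -0.38 ± 0.22 at 24 h (adjusted p = 0.31), 0.56 ± 0.22 at 48 h (adjusted p = 0.0647) and 1.43 ± 0.22 at 72 h (2.69-fold, adjusted p = 0.000209). Against 24 h it was higher at 48 h (0.93 ± 0.22, adjusted p = 0.011) and at 72 h (1.80 ± 0.22, adjusted p = 6.78e-05). The step at 72 h against 48 h, 0.87 ± 0.22, had an adjusted p of 0.106 in a comparison in which 0.681% of all genes passed.

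The second Fgfr3 probe set gave a smaller difference at 72 h (0.66, adjusted p = 0.136) and ended the calls for 48 h (0.491) and 72 h (0.0632) against 24 h. The call for 48 h against 24 h was also lost without induced 48 h replicate 1 (0.0632). With induced 24 h replicate 1 left out, the 24 h difference was -0.26 (adjusted p = 0.444), and the differences at 48 h against uninduced cells (adjusted p = 0.0292) and at 72 h against 48 h (0.0281) passed.

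Fgfr1, the main FGF receptor gene of ES cells, gave no call. Fgfr1 had signals of 207, 186 and 101 in uninduced cells. Its signals were 759.6, 199 and 219 at 24 h, 275, 231 and 199.5 at 48 h and 254, 198 and 176 at 72 h. One 24 h array, replicate 1, was at 759.6 and the other 11 arrays lay between 101 and 275. The difference was 0.97 at 24 h (95% interval 0.04 to 1.89, adjusted p = 0.18), 0.52 at 48 h (-0.40 to 1.45) and 0.36 at 72 h (-0.56 to 1.28). Leaving out induced 24 h replicate 1 gave 0.37 at 24 h (adjusted p = 0.341). The other 2 Fgfr1 probe sets gave 0.87 and 0.99 at 24 h and 0.05 and 0.79 at 72 h.

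**Figure D2:**
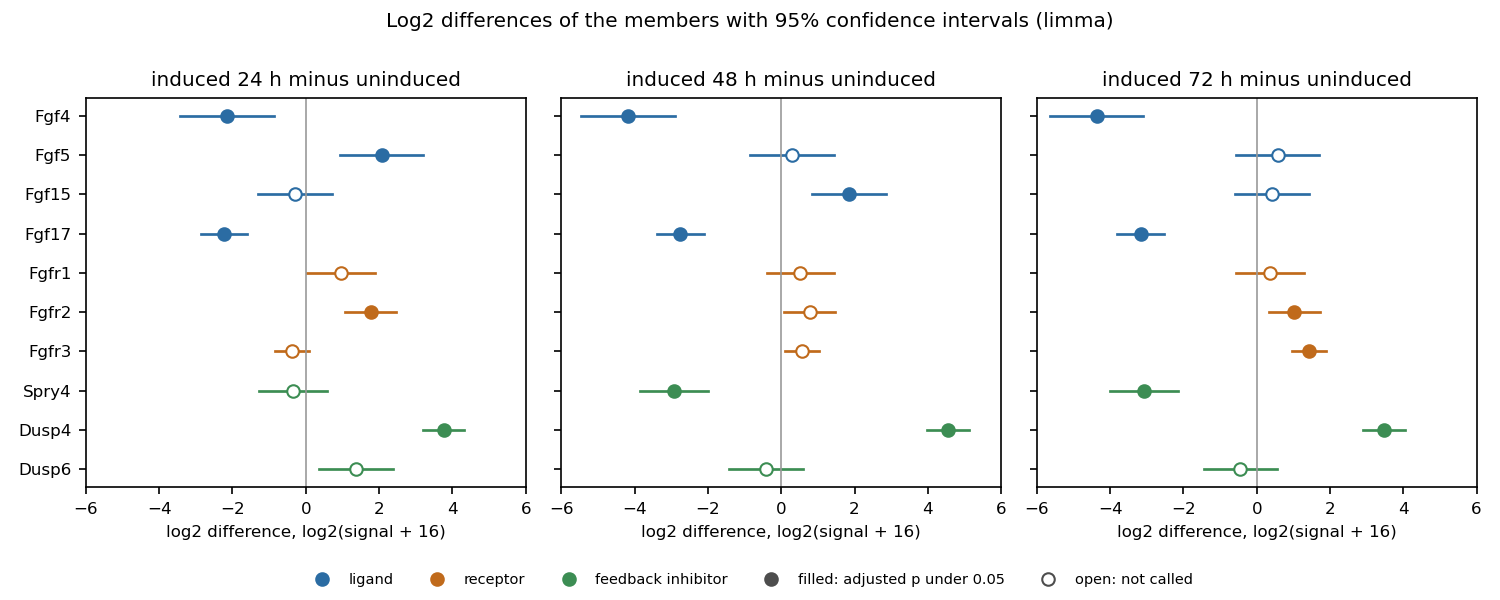
Log2 difference (log2(signal + 16) scale) of each member at 24, 48 and 72 h against uninduced cells, with bars for the 95% interval from limma and filled marks for calls at an adjusted p under 0.05. Dusp4 lies above 3 at each time, Fgf17 lies below -2 at each time, and Spry4 leaves 0 between 24 h (-0.34) and 48 h (-2.92).

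The feedback inhibitors went separate ways. Spry4, a Sprouty protein that restrains Ras activation, gave no call at 24 h and was low at 48 and 72 h. Spry4 had signals of 512, 429.9 and 490.3 in uninduced cells. Its signals were 661, 394 and 195 at 24 h, 60.2, 77.0 and 22.8 at 48 h and 66.7, 46.1 and 22.5 at 72 h. The 24 h arrays spread on both sides of the uninduced arrays, and all arrays at 48 and 72 h lay below both groups. The difference was -0.34 ± 0.43 at 24 h (95% interval -1.27 to 0.59), -2.92 ± 0.43 at 48 h (7.56-fold lower, adjusted p = 0.000231) and -3.08 ± 0.43 at 72 h (8.45-fold lower, adjusted p = 0.000112). Most of the loss fell between 24 and 48 h (-2.58 ± 0.43 for 48 h against 24 h, adjusted p = 0.00148). The calls at 48 and 72 h, against uninduced cells and against 24 h, were kept under every alternative, and the 24 h value without induced 24 h replicate 1 was -0.74 (adjusted p = 0.192). All 4 Spry4 probe sets had negative differences at 48 h, from -1.48 to -2.92.

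Dusp4, a nuclear phosphatase of ERK and related kinases, rose most of all members. Dusp4 had signals of 41.8, 70.4 and 36.9 in uninduced cells. Its signals were 1125, 816 and 678 at 24 h, 1629, 1428 and 1440 at 48 h and 784, 758 and 574 at 72 h. Each induced array was at 574 or above, and each uninduced array at 70.4 or below. The difference was 3.76 ± 0.26 at 24 h (13.6-fold, adjusted p = 6.98e-06), 4.56 ± 0.26 at 48 h (23.6-fold, adjusted p = 2.34e-07) and 3.48 ± 0.26 at 72 h (11.1-fold, adjusted p = 7.69e-07), called under every alternative. The 24 h value was 3.57 without induced 24 h replicate 1 (adjusted p = 3.4e-07).

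The Dusp4 maximum at 48 h was narrow of the threshold on both sides. The 48 h arrays lay above all 24 h and all 72 h arrays, with 0.80 ± 0.26 at 48 h against 24 h (adjusted p = 0.0548). The 72 h against 48 h difference was -1.08 ± 0.26 (adjusted p = 0.098). Both passed without induced 24 h replicate 1 (adjusted p = 0.00418 and 0.00792), and the first also without uninduced replicate 2 (0.0478). The array had 1 Dusp4 probe set annotated to it alone.

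Dusp6, a cytoplasmic phosphatase specific for ERK and a standard FGF response gene, had its highest values at 24 h. Dusp6 had signals of 307, 434 and 643 in uninduced cells. Its signals were 1467, 761 and 1399 at 24 h, 219.5, 283 and 557 at 48 h and 219.8, 219 and 662 at 72 h. The 24 h arrays lay above all arrays of the other groups, and those groups overlapped, with replicate 3 highest in each of them. The difference was 1.36 ± 0.46 at 24 h, which did not pass (adjusted p = 0.0846), -0.42 ± 0.46 at 48 h (95% interval -1.42 to 0.59) and -0.45 ± 0.46 at 72 h (-1.45 to 0.55). Dusp6 was lower at 48 h than at 24 h (-1.78 ± 0.46, adjusted p = 0.0197) and lower at 72 h than at 24 h (-1.81 ± 0.46, adjusted p = 0.0113).

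The fall of Dusp6 from its 24 h level did not pass when induced 48 h replicate 1 (adjusted p = 0.0975) or 2 (0.0742) was left out for 48 h, or induced 72 h replicate 1 (0.0562) or 2 (0.0558) for 72 h. The 24 h difference from uninduced cells was 1.20 without induced 24 h replicate 1 (adjusted p = 0.0893), and it passed without induced 72 h replicate 3 (0.0473). The 3 inhibitors gave a loss, a lasting rise and no called change from uninduced cells at 72 h: -3.08 for Spry4, 3.48 for Dusp4 and -0.45 for Dusp6.

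Between induced times, most of the members' changes lay between 24 and 48 h. At 48 h against 24 h, 6 of 10 members passed, against 16.2% of all genes: Fgf15 and Fgfr3 were higher, and Fgf4, Fgf5, Spry4 and Dusp6 were lower. At 72 h against 48 h no member passed in limma, against 0.681% of all genes, and without induced 24 h replicate 1 there were 3 calls, Fgf15, Fgfr3 and Dusp4. At an unadjusted p under 0.05 there were 3. For neither count of 3 is a share of all genes given here, so neither is read as particular to the members. At 72 h against 48 h 4 of 10 members had groups that did not overlap, as had 23.3% of all genes tested. At 72 h against 24 h, 6 passed, against 29.2%: Fgfr3 was higher and Fgf4, Fgf5, Fgf17, Spry4 and Dusp6 were lower. For Fgf17 (-0.94 ± 0.29, adjusted p = 0.0297) this call was lost without induced 24 h replicate 1 (0.079) or 2 (0.0544) and without induced 72 h replicate 1 (0.073) or 2 (0.108). It was lost too with a pseudocount of 64, the groups fitted alone, the mean of the probe sets and the second-brightest set. That set gave -0.18 and was below the array median on every induced array. For Fgf4 (-2.21 ± 0.59, adjusted p = 0.0145) the call at 72 h against 24 h was lost without induced 72 h replicate 3 (0.0593) and with the groups fitted alone. Without induced 48 h replicate 1, 2 members passed at 48 h against 24 h, and without induced 72 h replicate 1, 3 passed at 72 h against 24 h.

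**Figure D3:**
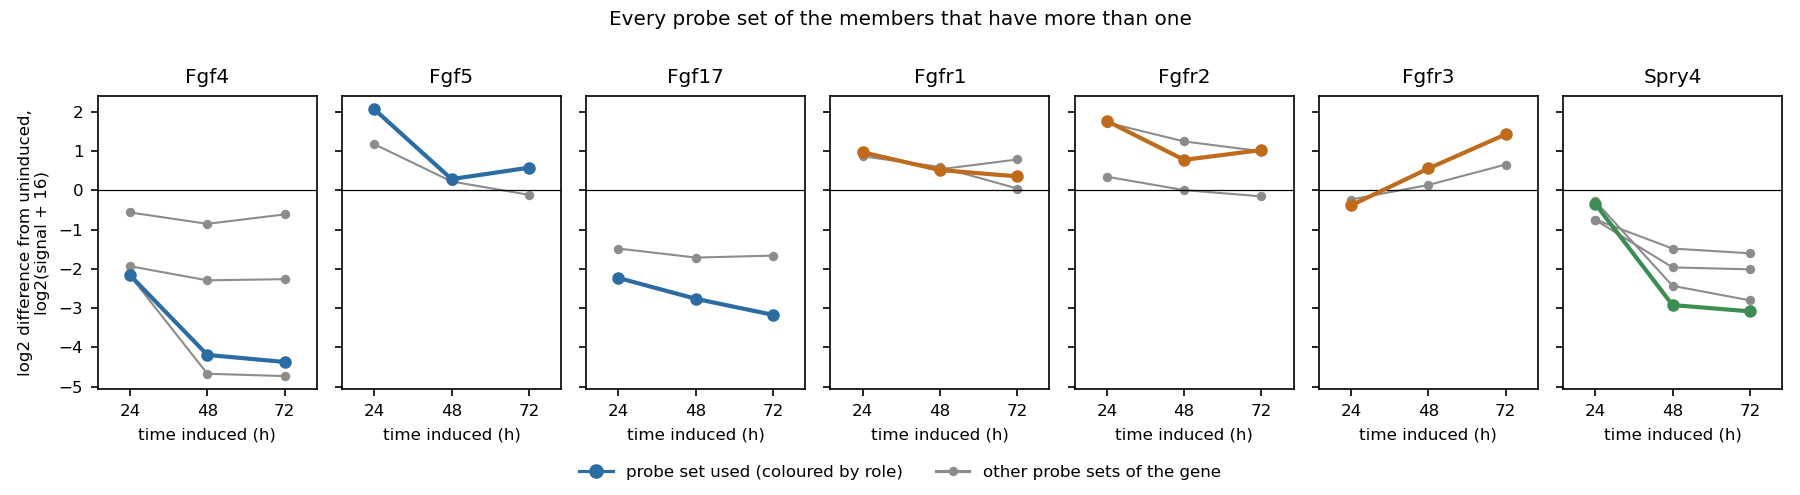
Log2 difference (log2(signal + 16) scale) from uninduced cells against hours of induction, for every probe set of the members that have several. The set used is a thick coloured line and the others are grey. The 4 Spry4 sets and the 4 Fgf4 sets lie below 0 at every time, while the 3 Fgfr2 sets divide at 72 h, with 1.03 and 1.00 against -0.15. The Fgfr2 set at -0.15 and the Fgf4 set nearest 0 were below the array median on every array.

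The rest of the pathway was described through 120 other genes in 8 lists. Of these 95 were tested, and 9 were higher and 4 lower at 24 h, 27 higher and 13 lower at 48 h, and 29 higher and 12 lower at 72 h. Without induced 24 h replicate 1 the counts were 20 higher and 8 lower at 24 h, 45 higher and 14 lower at 48 h, and 44 higher and 15 lower at 72 h, and without uninduced replicate 3 they were 4 higher and 3 lower at 24 h. With all arrays in, the medians were 0.19, 0.49 and 0.42 at 24, 48 and 72 h, beside 0.10, 0.10 and 0.08 over all genes. Of all genes tested 10.1%, 34.1% and 41.3% were then called, the shares to set beside the counts of each list below. Calls over all genes also changed when an array was left out, as given in the closing sections. Counts without an array are therefore not to be read against these shares. The lists were chosen with earlier results of these data known.

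**Figure D4:**
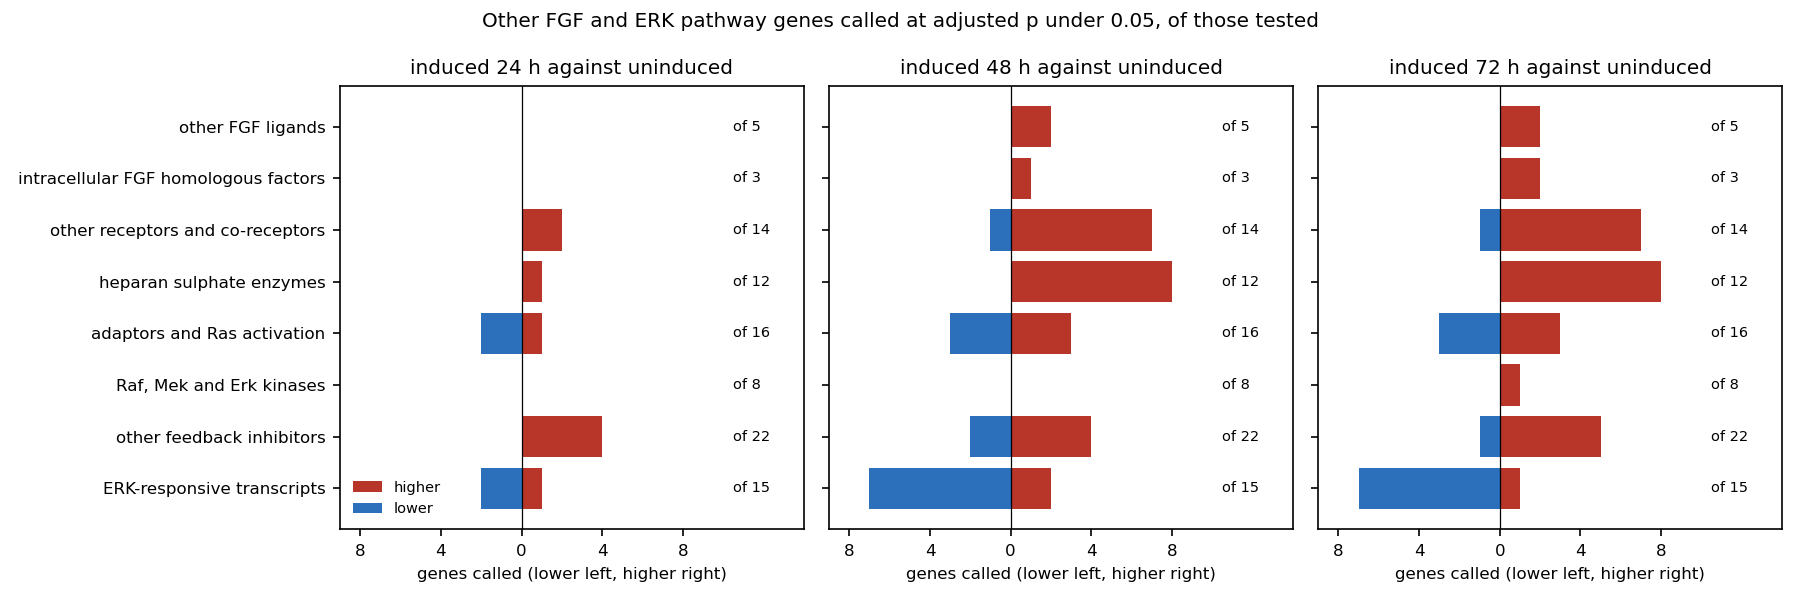
Number of genes higher (right of 0) and lower (left of 0) than uninduced cells at an adjusted p under 0.05 in each of the 8 pathway lists, at 24, 48 and 72 h. The heparan sulphate enzymes reach 8 higher and 0 lower of 12 at 48 h, and the ERK-responsive transcripts reach 2 higher and 7 lower of 15.

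Transcripts that respond to ERK were called in both directions, and Etv4 and Etv5 had the largest falls of the list at 48 and 72 h. Of 15 tested, 1 was higher and 2 lower at 24 h, 2 higher and 7 lower at 48 h, and 1 higher and 7 lower at 72 h, with medians of -0.05, -0.32 and -0.34. Leaving out induced 24 h replicate 1 gave 2 higher and 4 lower at 24 h, 5 higher and 7 lower at 48 h, and 3 higher and 7 lower at 72 h. Etv4 and Etv5 encode ETS factors that FGF signalling induces in many tissues. Etv5 had signals of 2012, 1445 and 1246 in uninduced cells. Its signals were 2899, 1347 and 1002 at 24 h, 109, 214 and 132 at 48 h and 178, 201 and 159 at 72 h. All 48 and 72 h arrays of Etv5 lay below all others, as they did for Spry4, while the 24 h arrays overlapped the uninduced ones. Its difference was 0.04 ± 0.36 at 24 h, -3.26 ± 0.36 at 48 h (adjusted p = 2.87e-05) and -3.00 ± 0.36 at 72 h (3.68e-05). Etv4 had signals of 177, 224 and 392 in uninduced cells. Its signals were 343, 141 and 101 at 24 h, 2.54, 10.7 and 13.6 at 48 h and 15.5, 12.4 and 2.33 at 72 h. Every array from 48 h on was at 15.5 or below, with -3.44 ± 0.41 at 48 h (adjusted p = 4.62e-05) and -3.39 ± 0.41 at 72 h (3.49e-05). The second Etv4 probe set gave -0.59 at 72 h (adjusted p = 0.131).

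Other ERK-responsive transcripts were lower from 24 h on, or higher. Myc was lower at 24, 48 and 72 h, with -1.61 ± 0.37, -2.02 ± 0.37 and -1.93 ± 0.37, the first lost without uninduced replicate 3 (adjusted p = 0.0612). Junb, an AP-1 subunit gene, was at -1.01 ± 0.25 at 24 h, a call lost without induced 24 h replicate 3 (0.0707) and uninduced replicates 1 (0.0909) and 2 (0.0924), and at -1.33 ± 0.25 at 72 h. The immediate early gene Ier3 was at -2.00 ± 0.27 at 48 h and -2.09 ± 0.27 at 72 h. Phlda1 went the other way, with 85.3, 121 and 196 in uninduced cells. Its signals were 270.4, 264 and 166 at 24 h, 785, 1040 and 806 at 48 h and 1141, 1193 and 1313 at 72 h. This is a rise of 2.63 ± 0.29 at 48 h (adjusted p = 2.49e-05) and 3.10 ± 0.29 at 72 h (3.96e-06). Ccnd1, cyclin D1, was higher at 24 h (1.33 ± 0.28, adjusted p = 0.00865) and at 48 h (1.14 ± 0.28, 0.00646), and was at 0.09 ± 0.28 at 72 h.

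**Figure D5:**
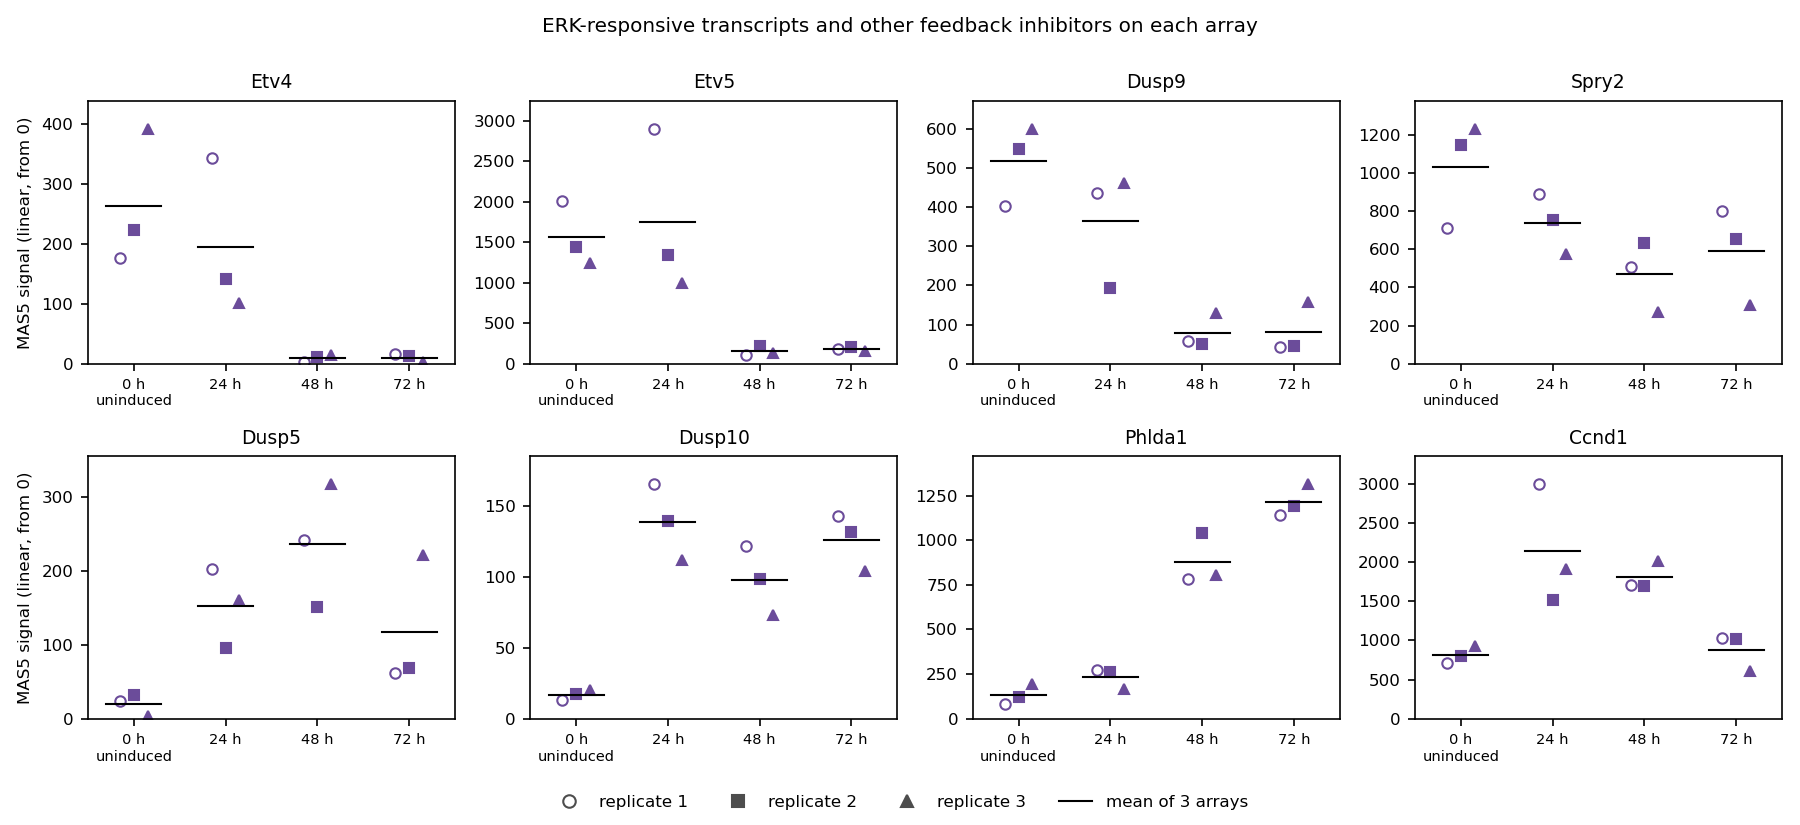
MAS5 signal (linear axis from 0) on each array, by hours of induction, of Etv4, Etv5, Dusp9, Spry2, Dusp5, Dusp10, Phlda1 and Ccnd1, with replicates as separate marks and the mean as a line. Etv4, Etv5 and Dusp9 are low at 48 and 72 h, Dusp5 and Dusp10 are high on every induced array, and Phlda1 is highest at 72 h.

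Other feedback inhibitors were called in both directions. Of 22 tested, 4 were higher and none lower at 24 h, 4 higher and 2 lower at 48 h, and 5 higher and 1 lower at 72 h, with medians of 0.23, 0.42 and 0.38. With induced 24 h replicate 1 left out, the counts were 8 higher and 2 lower at 48 h and 10 higher and 2 lower at 72 h. With all arrays in, 10.1%, 34.1% and 41.3% of all genes tested were called at 24, 48 and 72 h. Dusp9, an ERK phosphatase characteristic of ES cells, had signals of 404, 549 and 599.8 in uninduced cells. Its signals were 436, 194 and 461 at 24 h, 58.2, 50.4 and 130.3 at 48 h and 42.5, 45.6 and 157 at 72 h. Arrays at 48 and 72 h lay below all others, with -2.55 ± 0.46 at 48 h (adjusted p = 0.000922) and -2.63 ± 0.46 at 72 h (0.000557). Spry2 was at -1.15 ± 0.39 at 48 h (adjusted p = 0.0358), a call lost without induced 48 h replicate 1 (0.0651) or 3 (0.156), without uninduced replicate 2 (0.105) or 3 (0.122) and on its second probe set (0.274).

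The nuclear ERK phosphatase gene Dusp5 rose as well. Dusp5 had signals of 24.2, 31.8 and 3.92 in uninduced cells. Its signals were 203, 95.7 and 160.2 at 24 h, 241, 151 and 317 at 48 h and 62.5, 68.2 and 222 at 72 h. All induced arrays lay above all uninduced arrays, with 2.27 ± 0.46 at 24 h (adjusted p = 0.00769), 2.85 ± 0.46 at 48 h (0.000475) and 1.79 ± 0.46 at 72 h (0.00766). Dusp10, which acts on the stress kinases p38 and JNK, rose by 2.22 ± 0.23, 1.77 ± 0.23 and 2.10 ± 0.23 at the 3 times, and its second probe set gave 0.77 at 48 h (adjusted p = 0.068). Lrig1, an inhibitor of receptor tyrosine kinases, rose by 1.43 ± 0.29, 2.48 ± 0.29 and 2.08 ± 0.29. Dusp8 was at 2.28 ± 0.40 at 72 h (adjusted p = 0.000617).

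Among cell surface partners of the receptors, adhesion molecules had the largest rises. Of 14 other receptors and co-receptors tested, 2 were higher and none lower at 24 h, and 7 were higher and 1 lower at 48 and at 72 h, with medians of 0.17, 0.79 and 1.04. Cdh2, N-cadherin, rose by 4.43 ± 0.31 at 48 h (adjusted p = 9.62e-07) and 4.86 ± 0.31 at 72 h (2.56e-07). At 24 h Cdh2 was at 1.31 ± 0.31 (adjusted p = 0.0191), which was lost without induced 24 h replicate 2 (0.0609), uninduced replicate 1 (0.0874) or uninduced replicate 3 (0.0864). Flrt3, a membrane protein that binds FGF receptors, rose by 2.48 ± 0.39 at 48 h and 3.25 ± 0.39 at 72 h, and Ncam1, a neural adhesion molecule, by 2.28 ± 0.27 and 2.89 ± 0.27. Fgfrl1, an FGF receptor relative with no kinase domain, rose by 1.75 ± 0.23 at 48 h and 1.53 ± 0.23 at 72 h, and its second probe set gave 0.85 at 72 h (adjusted p = 0.056). At 24 h Fgfrl1 was at 0.89 ± 0.23 (adjusted p = 0.0293), lost without induced 24 h replicate 2 (0.0514), induced 72 h replicate 2 (0.0523), uninduced replicate 1 (0.105) or uninduced replicate 3 (0.11), with either other scaling and with other probe set choices. Sdc4, a syndecan, was the lower one, with -1.18 ± 0.39 at 48 h (adjusted p = 0.0318) and -1.09 ± 0.39 at 72 h (0.0374). Its calls were lost without induced 48 h replicate 1 (0.138), without uninduced replicate 2 (0.115 at 48 h and 0.132 at 72 h) or 3 (0.10 and 0.111), and without induced 72 h replicate 1 (0.136) or 2 (0.0832). The neuron markers rose at 48 and 72 h as well, as given above, and any part of that shift in these changes was not tested.

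Of the enzymes that build or edit heparan sulphate, 12 were tested, and 1 was higher at 24 h, 8 at 48 h and 8 at 72 h. None was called lower at these times, and the medians were 0.51, 0.95 and 0.84. The 1 at 24 h was Hs6st1, a 6-O-sulphotransferase gene, whose call ended without uninduced replicate 1 (adjusted p = 0.0524) or 3 (0.0737), and there were 4 calls without induced 24 h replicate 1. Hs6st1 was also among those called at 48 and 72 h, calls lost under 12 and 13 of 24 alternatives. Its relative Hs6st2 rose by 2.23 ± 0.44 at 48 h (adjusted p = 0.00181) and 2.49 ± 0.44 at 72 h (0.000642). Extl2, a glycosyltransferase gene, rose by 1.41 ± 0.25 and 1.36 ± 0.25. Hs3st1, a 3-O-sulphotransferase gene, was at 1.09 ± 0.29 at 48 h, lost with quantile normalization (adjusted p = 0.0641) and median centring (0.0629), and at 1.56 ± 0.29 at 72 h (0.000856). Sulf1 was called higher at 48 h, a call lost under 5 of 24 alternatives.

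Of the 8 Raf, Mek and Erk kinase genes tested, none passed at 24 or 48 h and 1 was higher at 72 h, with medians of 0.09, 0.37 and 0.35. That was Rps6ka3, a kinase downstream of ERK (1.97 ± 0.71, adjusted p = 0.041), which was lost without any single array of the 48 h, 72 h or uninduced groups (adjusted p = 0.0528 to 0.123) and passed at 24 h (0.00144) and 48 h (6.31e-05) without induced 24 h replicate 1. With that array out, the list had 2 higher at 24 h, 3 higher and 1 lower at 48 h, and 3 higher and 2 lower at 72 h. Of the 16 adaptor and Ras genes tested, 1 was higher and 2 lower at 24 h, and 3 were higher and 3 lower at 48 and at 72 h, with medians of -0.10, 0.17 and 0.15. Leaving out induced 24 h replicate 1 gave 4 higher and 2 lower at 24 h, and 7 higher and 3 lower at the later times. Over all genes tested, with all arrays in, the shares called were 10.1%, 34.1% and 41.3%. Eras, a Ras gene of ES cells, fell, with -2.25 ± 0.43 at 24 h, -4.58 ± 0.43 at 48 h and -5.25 ± 0.43 at 72 h (adjusted p = 1.53e-06). Mras fell too, with -2.87 ± 0.28, -2.31 ± 0.28 and -2.33 ± 0.28, although its second probe set gave -0.41 at 48 h (adjusted p = 0.305) and -0.39 at 72 h (0.309). The docking protein gene Gab2 rose by 2.99 ± 0.25 at 48 h and 3.99 ± 0.25 at 72 h (2.39e-07), whereas its relative Gab1 fell, with -1.25 ± 0.24 and -1.24 ± 0.24. Plcg1, a phospholipase gene, was at 1.28 ± 0.28, 1.68 ± 0.28 and 1.60 ± 0.28, but its second probe set gave 0.11, -0.10 and -0.27, none of them called.

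All 14 other secreted ligands were on the array, and 5 were bright enough to be tested. Of these, none passed at 24 h and 2 were higher at 48 and at 72 h, with none lower and medians of 0.35, 0.81 and 0.55. Fgf18 was at 1.68 ± 0.30 at 72 h (adjusted p = 0.00074). Fgf10 was at 0.89 ± 0.26 at 48 h (adjusted p = 0.0186), lost without induced 48 h replicate 1 (0.0677) or uninduced replicate 3 (0.0768). Its signals at 48 h were 35.6, 27.4 and 30.0, each above its array's median, and on every other array Fgf10 was below the median. Without the 48 h group, where it was high, Fgf10 would not have entered the test. The count of 2 higher at 48 h includes it. Of the 3 intracellular FGF homologous factors tested, which bind sodium channels and do not act on FGF receptors, 1 was higher at 48 h and 2 at 72 h, and without induced 24 h replicate 1 there were 2 at 48 h, since Fgf13 then passed (adjusted p = 0.0158). These were Fgf12 (1.63 ± 0.22 and 2.10 ± 0.22) and Fgf13 (2.52 ± 0.29 at 72 h, adjusted p = 2.58e-05), both neuronal transcripts.

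The genes most like each member over the 12 arrays were found by Pearson r on the log2(signal + 16) scale, as a description of arrays that share groups and probe chemistry. For Fgf4 they were Pcolce2 (r = 0.985) and Dnmt3l (0.984), and for Spry4 they were Rarg (0.989), a retinoic acid receptor gene, and Hsd17b14 (0.987). For Dusp4 they were Slc22a23 (0.987) and Neurog1 itself (0.983). For Fgf17 they were Mrpl22 (0.982) and Nip7 (0.977), for Fgfr3 Rusc1 (0.966) and Ripor2 (0.964), for Fgfr2 Csn3 (0.933) and Msmo1 (0.931), for Dusp6 Cnot9 (0.928) and Slc39a14 (0.927), and for Fgf15 Gsn (0.882) and Unc45b (0.877). For Fgf5 they were Fbxw17 (0.98) and Smim20 (0.951), and for Fgfr1 Fam53c (0.966) and Ap1b1 (0.958). Without induced 24 h replicate 1 the r of Smim20 was 0.886, that of Fam53c 0.883 and that of Ap1b1 0.848. Only Pcolce2, Fbxw17, Mrpl22, Msmo1, Rarg and Hsd17b14 then stayed among the 2 genes most like their member. Neurog1 was then at rank 6 for Dusp4, and Ap1b1 at rank 26 for Fgfr1.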

How the data were processed

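RNA was measured on 12 Affymetrix arrays, made by the submitters from 20 ug of total RNA each, per the labels' protocols. The values deposited by the authors are linear intensity, with 1 MAS5 signal for each probe set, according to the submitters' processing notes. The sources used here name no MAS5 version and no settings. The 2% trimmed mean was 150 on every array, and median signals ran from 19.5 to 32.8. Of 45101 probe sets, 34945 carried 1 gene symbol in the platform annotation, 932 several and 9160 none, and those without exactly 1 were left out, as were the 64 controls.

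Signals were taken as log2(signal + 16), with the brightest probe set per gene. A gene was tested where it exceeded its array's median (percentile 50) on at least 3 of the 12 arrays. A linear model with 4 group terms was fitted in R 4.3.3 by the limma package, version 3.58.1 (lmFit, contrasts.fit, eBayes with an intensity trend). Its 6 two-sided contrasts were adjusted by Benjamini-Hochberg over 12629 genes, with calls at an adjusted p under 0.05. The procedure was tested on simulated data. Alternatives were other pseudocounts, filters, probe set choices and scalings, array weights, the groups alone, a replicate block and leaving out each array.

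Members, pathway lists and markers were chosen with earlier results of these data known. Named genes are the members, up to 3 called rises and falls per list and time, the 2 genes most correlated with each member, and Neurog1. Replicate numbers did not meet the rule for pairing, so no block was used in the results. Same-numbered arrays still tended to deviate together from their group means, with a median r of 0.143, against -0.084 for other pairs. Calls with a block are given below. The number of arrays limits the precision.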

Additional observations from a re-analysis of the deposited data

How the results depend on the processing

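Of 60 member differences 28 were called, and 14 of these kept their call under all 24 alternatives. The other 14 were lost under at least 1, and 10 of the 32 that were not called passed under at least 1. No member difference that was called changed sign. With the groups fitted alone, the members called were 3 at 24 h against uninduced cells, 2 at 48 h against 24 h, 3 at 72 h against 48 h and 3 at 72 h against 24 h. A pseudocount of 1 gave 3 at 24 h, a pseudocount of 64 gave 2 at 72 h against 48 h, and array weights, with a weight of 0.06 for induced 24 h replicate 1, gave 3 there. Leaving out each array gave 3 to 6 members at 24 h, 5 to 7 at 48 h and 5 to 6 at 72 h against uninduced cells, 2 to 7 at 48 h against 24 h, 0 to 3 at 72 h against 48 h and 3 to 6 at 72 h against 24 h.

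Over all genes, 1279 calls at 24 h became 801 with the second-brightest probe set, 337 with the groups alone, 2864 with array weights and 668 to 2900 when leaving out an array. The 4306 calls at 48 h became 6475 with the groups alone, 6758 with weights and 3173 to 6750 when leaving out an array. The 5213 at 72 h became 7824 with weights and 4039 to 7432 when leaving out an array. At 48 h against 24 h, 2050 became 981 alone, 4051 with weights and 1129 to 2925 when leaving out an array. At 72 h against 48 h, 86 became 19 with a pseudocount of 1, 226 with 64, 50 with a filter at percentile 75, 144 with the mean of probe sets, 421 alone, 1496 with weights and 25 to 469 when leaving out an array. At 72 h against 24 h, 3687 became 1922 alone, 6243 with weights and 2396 to 4730 when leaving out an array. The cause was not tested.

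Same-numbered arrays deviated together at over 0.1 in 16 of 18 pairs, and 9 of 12 arrays correlated best with their own number. With the replicate number as a block, the members called were 6, 6, 6, 8, 0 and 6 in the 6 comparisons, in the order 24, 48 and 72 h against uninduced cells, 48 h against 24 h, 72 h against 48 h and 72 h against 24 h. Members' calls gained with the block were Dusp6 at 24 h (adjusted p = 0.0173), Fgfr2 at 48 h (0.048) and, at 48 h against 24 h, Fgfr2 (0.0319) and Dusp4 (0.0348). The genes called were 1621, 4712, 5668, 2445, 91 and 4139. Median centring moved the median over all genes to -0.20 at 48 h and -0.24 at 72 h, against 0.10 and 0.08 as deposited, and to -0.16 at 48 h and -0.21 at 72 h against 24 h, against 0.01 and -0.02. Quantile normalization moved it to -0.04, -0.09, -0.10 and -0.15 in these 4 comparisons. Of the pathway genes Plcg1 reversed on its second probe set, with -0.10 at 48 h and -0.27 at 72 h against 1.68 and 1.60. The lowest signals, below the arrays' medians of 19.5 to 32.8, have no reliable order.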

Other observations

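Replicate 3 differed from replicates 1 and 2 in the same direction at 48 and at 72 h for several of these genes, which were picked after their values were seen. Dusp6 was at 557 on the 48 h array of replicate 3, against 219.5 and 283, and at 662 on its 72 h array, against 219.8 and 219. Fgfr2 was at 253 and 337 on those arrays of replicate 3, against 147 and 137 at 48 h and 155 and 171 at 72 h. Dusp9 was at 130 and 157 on the replicate 3 arrays, against 58.2 and 50.4 at 48 h and 42.5 and 45.6 at 72 h. Fgf4 was lowest there, at 20.0 and 5.26, against 41.3 and 89.0 at 48 h and 55.3 and 82.4 at 72 h. Spry4 was also lowest there, at 22.8 and 22.5, against 60.2 and 77.0 at 48 h and 66.7 and 46.1 at 72 h. The cause was not tested.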
